A study of Mus musculus with 10 samples.

Results

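Small nucleolar RNAs and small Cajal body RNAs are short guide RNAs of the cell nucleus. Box C/D RNAs (Snord genes) guide 2'-O-methylation, and box H/ACA RNAs (Snora genes) guide the change of uridine to pseudouridine, mainly in ribosomal RNA. Small Cajal body RNAs (Scarna genes) guide the same modifications in spliceosomal RNAs. In mammals most of them are cut out of the introns of host genes, many of which encode ribosomal proteins, and the mature RNAs carry no poly(A) tail. The members were the rows of the expression tables whose symbol begins with Snord, Snora or Scarna followed by a digit. There were 117 such rows among 23284 features, 72 of box C/D, 36 of box H/ACA and 9 of Cajal body RNAs. Of these, 46 lay above the lowest recorded level in at least 1 library: 17 box C/D, 26 box H/ACA and 3 Cajal body RNAs. The other 71 lay at that level in all 10 libraries.

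RNA of the colorectum of 7-week-old BALB/c mice was sequenced with a stranded mRNA kit, 2 libraries in each of 5 groups. Mice of 3 groups were given 2% dextran sodium sulfate (DSS), which provokes colitis, and received miR-29a, miR-29b or a negative control miRNA (NC-miR) by tail vein, carried by super carbonate apatite (sCA), with tissue taken on day 4. A further group given DSS and NC-miR was taken on day 2, although its labels also give injections on days 1 to 3. The normal group was untreated and taken on day 0, so DSS, injection and day cannot be told apart in any comparison with it. Nothing in the labels says that the libraries of a group came from separate animals, so p-values measure the spread between libraries, which may be technical. All 8 colonocyte markers and all 4 goblet cell markers found lay above the lowest level in all 10 libraries. The squamous epithelium markers stood 4.59 above the normal mean in NC-miR day 4 replicate 1 (median log2), against -0.18 to 0.57 in the other 7 DSS libraries. In bulk tissue, fewer cells of a type and less RNA per cell cannot be told apart.

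The results turn on a few members, shown here with their genes in GRCm38 as annotated by GENCODE. Snord16a (chr9:64175423-64175521, plus strand) lies within an exon of the ribosomal protein gene Rpl4, Snord22 (chr19:8725866-8725991, plus strand) within an exon of the noncoding host Snhg1, and Snord15a (chr7:99482785-99482932) and Snord15b (chr7:99479563-99479707) on the minus strand in Rps3, in an intron and within an exon. Of the box H/ACA RNAs, Snora81 (chr16:23110756-23110933, plus strand) lies within an exon of Eif4a2, Snora70 (chrX:74272484-74272620, plus strand) within an exon of Rpl10 and Snora31 (chr14:75847905-75848034, plus strand) in an intron of Tpt1. The exons include those of transcripts that retain an intron. The RNAs are printed 5' to 3' as DNA letters. Capitals mark TGATGA starting in the opening 20 bases (the usual box C of box C/D RNAs) and CTGA starting in the closing 20 bases (box D) of the Snord genes, and ACA placed 3 bases before the end of the Snora genes.
Snord16a: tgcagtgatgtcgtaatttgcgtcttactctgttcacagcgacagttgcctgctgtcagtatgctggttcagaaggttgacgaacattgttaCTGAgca
Snord22: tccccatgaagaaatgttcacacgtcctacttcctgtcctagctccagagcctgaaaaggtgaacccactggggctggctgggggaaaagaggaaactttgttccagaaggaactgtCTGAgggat
Snord15a: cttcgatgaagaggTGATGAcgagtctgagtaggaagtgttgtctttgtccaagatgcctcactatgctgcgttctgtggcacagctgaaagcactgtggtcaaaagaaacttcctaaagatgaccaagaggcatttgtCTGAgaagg
Snord15b: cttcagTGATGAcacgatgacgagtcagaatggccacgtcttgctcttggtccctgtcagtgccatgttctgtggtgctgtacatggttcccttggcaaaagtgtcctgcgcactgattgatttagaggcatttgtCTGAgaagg
Snora81: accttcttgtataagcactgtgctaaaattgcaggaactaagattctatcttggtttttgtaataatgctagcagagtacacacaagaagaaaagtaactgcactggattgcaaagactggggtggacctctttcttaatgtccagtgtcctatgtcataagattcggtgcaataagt
Snora70: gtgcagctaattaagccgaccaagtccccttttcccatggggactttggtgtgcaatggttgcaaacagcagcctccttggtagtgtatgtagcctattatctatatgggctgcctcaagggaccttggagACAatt
Snora31: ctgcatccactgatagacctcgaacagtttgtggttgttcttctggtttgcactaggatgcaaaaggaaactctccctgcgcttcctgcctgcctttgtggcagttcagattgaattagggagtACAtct

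CTGA was present in 17 of 17 box C/D members above the lowest level and in 98% of 98 annotated mouse box C/D genes, and TGATGA in 11 of 17 members and 71.4% of the 98. ACA stood 3 bases before the end in 19 of 26 box H/ACA members and in 76.2% of 42 annotated genes. Only the strand of the RNA was searched. Snord16a, Snord22 and Snora81 hold no match for the box C or ACA letters in these windows. The Snord15 pair shared 101 of 154 aligned positions (65.6% identity).

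How many fragments stood behind these RNAs? Each deposited value is a log2 difference from a baseline of its feature, low values have been raised to a common floor, and no counts are given. The floor of a feature was taken as its lowest value where at least 2 libraries shared it. For the short members, however, the heights over the floor were not continuous. They fell on 1 step of each feature plus an offset of each library plus the log2 of a whole number, as FPKM values (fragments scaled by feature length and library depth) do when a feature collects only a few fragments. Of 36 members above the floor in at least 2 libraries, 34 had whole-number values there, within 0.005 log2, with a median residual of 3.1e-06 log2. In Snora81 this held once normal replicate 1, with a value less than 1 step high, was set aside. Snora26 and Snord7 were not whole. A further 9 of 10 members seen in 1 library were given a count from features of like length, within 0.2 log2, and Snora24 was not. Counts were thus recovered for 43 of 46 members. They are fragments assigned to a feature, and whether these came from the short RNA or from a transcript of its host gene was not tested.

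The height of 1 fragment over the floor differed with length. It was 10.3 log2 in Snord33, which has 82 bases in RefSeq, and 0.61 log2 in Scarna13, which has 275 bases. Over the 30 members with a floor and whole values, step height fell along 1 curve as RefSeq length grew (Spearman's rho -0.9997, a description, since the features share the same libraries). A single fragment of Snord16a, which has 91 bases in RefSeq, lay 8.47 log2 over the floor, so that 1 fragment was worth about 355 times the floor. With the members' library offsets, 13 of 21 other short features were also whole, and 6 of the 9 library offsets came out alike when taken from those features alone. Where the lowest count of a member was 2 rather than 1 fragment, its counts would all be too low by that factor.

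**Figure D1:**
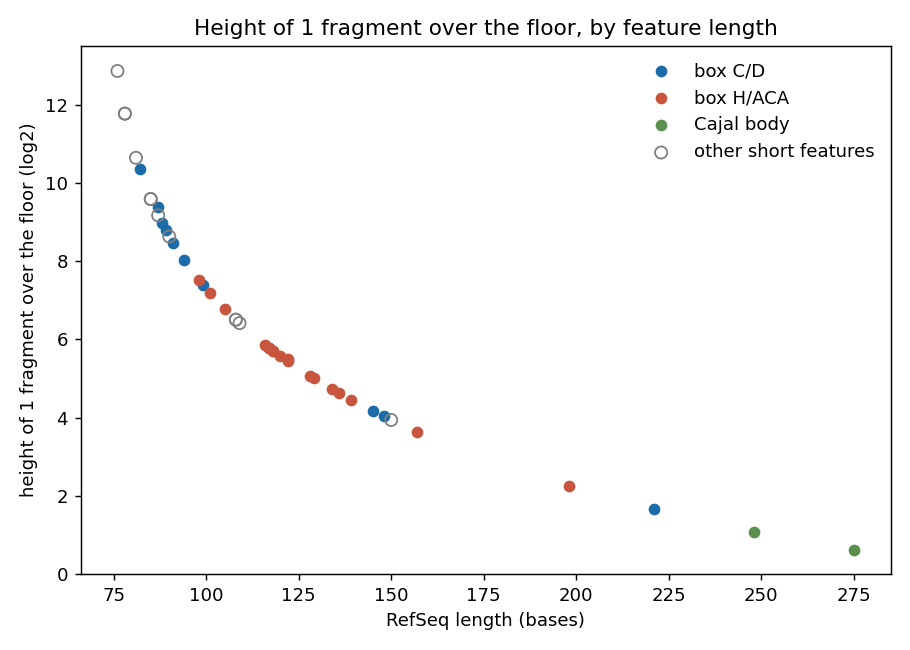
Height of 1 recovered fragment over the floor (log2, vertical axis) against RefSeq length in bases (horizontal axis), for members by family and for other short features (open circles). All points lie on 1 falling curve, with 0.61 log2 at 275 bases.

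The recovered counts were very low. They summed to 455 fragments over 43 members and 10 libraries. Of 183 values above 0, 97 were 1 fragment and 34 were 2 fragments, together 71.6%. A value of 10 or more occurred 4 times, and the highest was 26. The median member had 5 fragments over all libraries, and 15 members had 3 or fewer. More than 20 fragments were found for 6 members only: Snord22 with 63, Snora81 with 59, Snord15b with 29, Snora70 with 27, and Snora28 and Snora31 with 23 each.

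**Figure D2:**
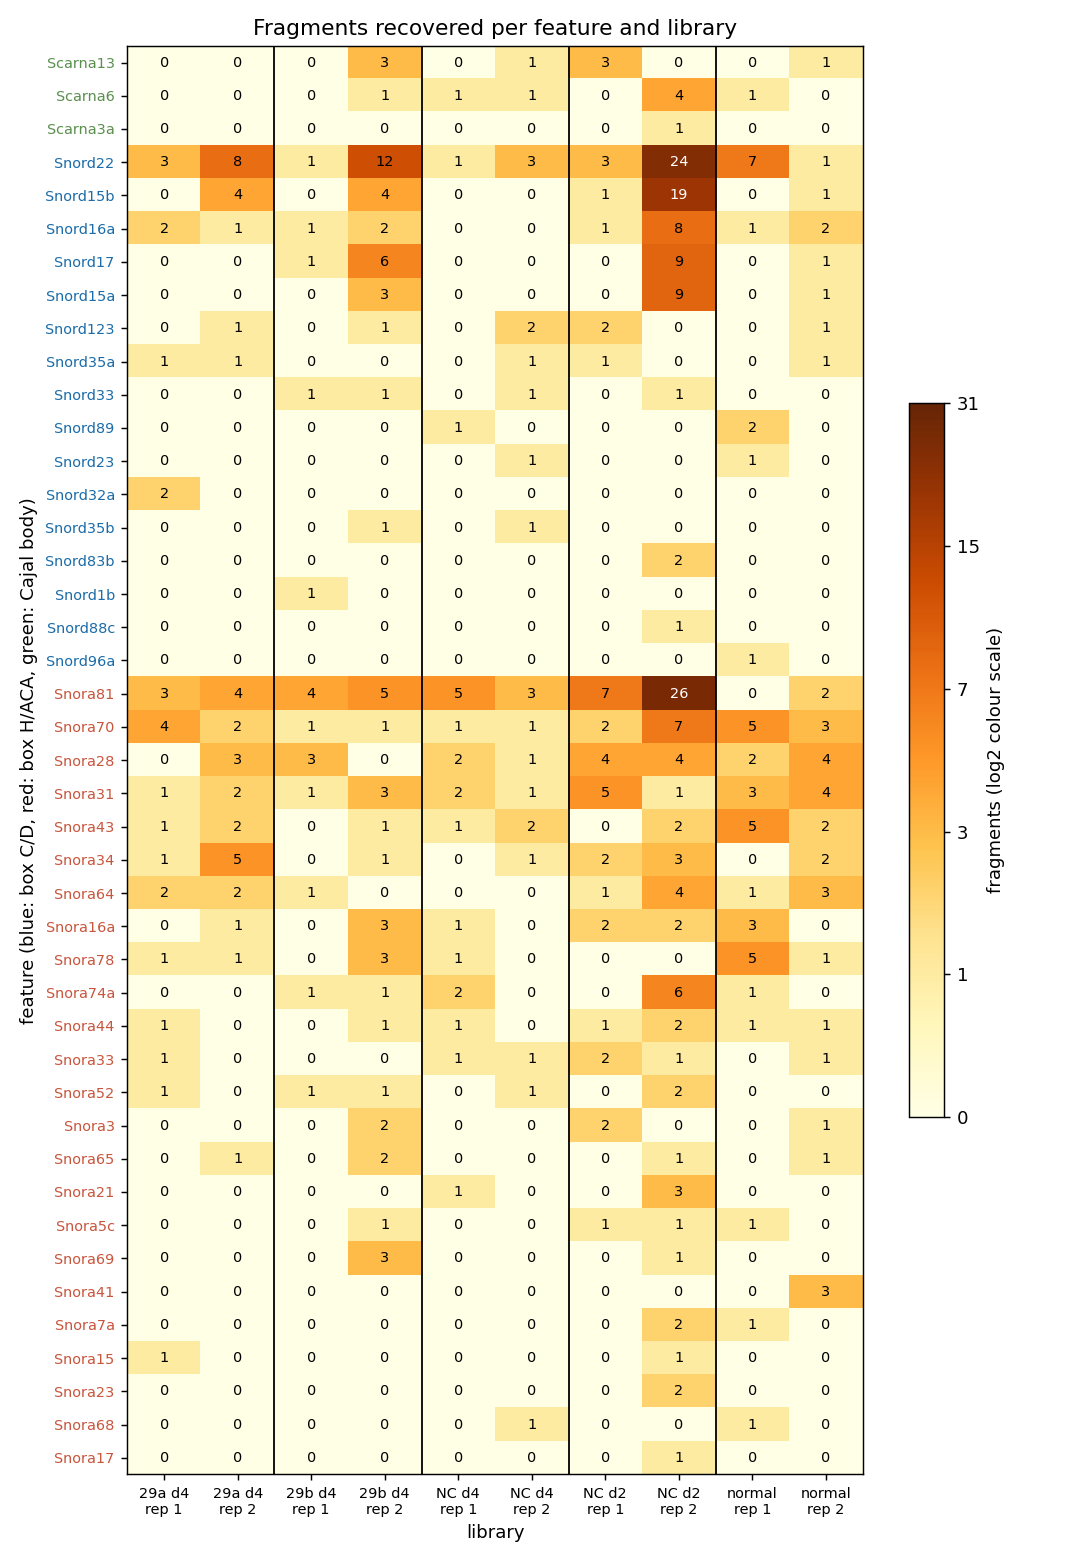
Recovered fragments of 43 members (rows, coloured by family) in 10 libraries (columns, grouped by the black lines). Most cells hold 0 or 1, and the darkest cells, 26 for Snora81, 24 for Snord22 and 19 for Snord15b, stand in the column of NC-miR day 2 replicate 2.

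The number of members at the floor is given out of 117. It was 100 and 102 in the miR-29a libraries, 104 and 91 in the miR-29b libraries, 103 and 100 for NC-miR day 4, 99 and 86 for NC-miR day 2, and 97 and 95 in the normal libraries. More members lay at the floor in both miR-29a and both NC-miR day 4 libraries than in any NC-miR day 2 or normal library. The closest of these values were 100 and 99. The miR-29b libraries spanned the range of the others apart from the value of 86. Over all 23284 features, 10350 and 10455 lay at the floor for miR-29a and 10450 and 10604 for NC-miR day 4. For NC-miR day 2 they were 10445 and 10466, and for normal 10525 and 10344, so the groups overlapped there, unlike for the members. Dropping to the floor was the rule for these RNAs: 42 of the 46 were at the floor in some libraries and above it in others (91.3%), against 12.3% of the 13833 features of the whole table that were ever above it. The 32 microRNA features ever above the floor, which are of like length, were mixed in 78.1%. Only Snora31, Snora70, Snord22 and Snora81 were never at a floor shared by 2 libraries, and 10 members were above it in 1 library alone. Of the 46 members, 10 were above the floor in both libraries and 12 in 1 of the libraries of the miR-29a group, 9 and 21 in the miR-29b group, 8 and 15 in the NC-miR day 4 group, 13 and 23 in the NC-miR day 2 group, and 11 and 20 in the normal group. In every group more members were seen in 1 library than in both.

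Box H/ACA RNAs were seen more often than box C/D RNAs, with 26 of 36 against 17 of 72 rows ever above the floor. They were also longer. The median RefSeq length was 122 bases for box H/ACA members above the floor and 112.5 bases for those always at it. For box C/D it was 89 bases in members above the floor and 64 bases in those always at it. Cajal body RNAs had medians of 248 bases above the floor and 66.5 bases at it. The part of length in being seen was not tested.

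Summed over members, the miR-29a libraries held 25 and 38 fragments, the miR-29b libraries 17 and 62, the NC-miR day 4 libraries 21 and 23, the NC-miR day 2 libraries 40 and 150, and the normal libraries 42 and 37. NC-miR day 2 replicate 2 stood apart with 33% of all fragments (95% Wilson interval 28.8% to 37.4%), against 10.3% of the relative depth given by the library offsets. Intervals of this kind cover counting error only. That library was highest for 19 of 43 members. It also held 34 of 130 fragments on other short features (26.2%, 19.4% to 34.3%). These included 12 of 16 fragments of Rnu11 and 11 of 14 of Rnu12, nuclear RNAs of the minor spliceosome. Of the remaining fragments on other short features, mostly microRNA genes, it held 11 of 100 (6.25% to 18.6%). Rnu11 and Rnu12 were set apart without a stated rule, and why this library stood apart was not tested. Its features at the floor over the whole table numbered 10466 of 23284, within the range of the other libraries (10344 to 10604). The relative depth of the libraries ran from 0.80 to 1.23 times that of NC-miR day 2 replicate 2. Per unit of relative depth the group sums were 36.4 fragments for miR-29a, 42.3 for miR-29b, 24 for NC-miR day 4, 85.2 for NC-miR day 2 and 38.4 for normal. Without replicate 2, the NC-miR day 2 value was 32.5.

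**Figure D3:**
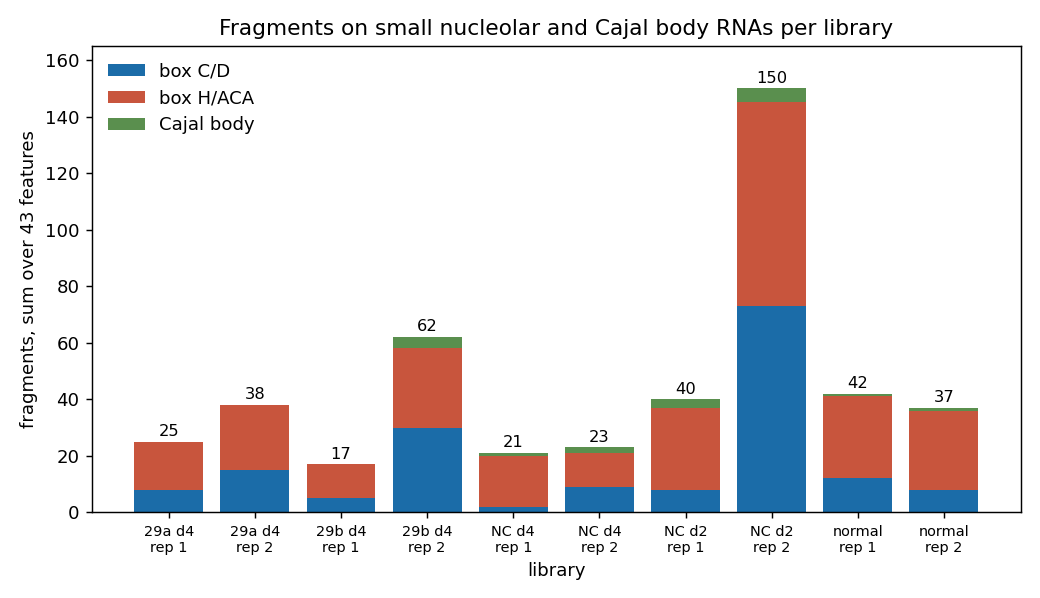
Recovered fragments summed over 43 members in each library, stacked by family, with the total above each bar. NC-miR day 2 replicate 2 reaches 150, and the other 9 libraries lie between 17 and 62.

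Snord16a was the 1 member at the floor in both libraries of exactly 1 group and above it in all 8 others. It had 2 and 1 fragments in the miR-29a libraries, 1 and 2 in the miR-29b libraries, 0 and 0 for NC-miR day 4, 1 and 8 for NC-miR day 2, and 1 and 2 in the normal libraries. Apart from the value of 8, each library above 0 held 1 or 2 fragments. The fitted differences on the deposited log2 scale were large all the same. Snord16a differed by -8.96 ± 0.95 in NC-miR day 4 against normal (limma, SE, n = 2 each, adjusted p = 0.0101) and by -9.80 ± 0.95 in NC-miR day 4 against NC-miR day 2 (adjusted p = 0.0357). It differed by 9.20 ± 0.95 in miR-29a against NC-miR on day 4 (adjusted p = 0.116) and by 9.09 ± 0.95 in miR-29b against NC-miR on day 4 (adjusted p = 0.093), neither of which passed 0.05. These values hold the distance between the floor and 1 fragment and are no measure of the fold in RNA.

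On the recovered counts the same comparisons looked different. A count of 0 over a group allows up to 3 fragments. With 3 fragments in each of the miR-29a, miR-29b and normal groups, no fold against NC-miR day 4 could be given for them. Against the 9 fragments of NC-miR day 2, NC-miR day 4 was 2.47-fold lower per unit of depth when given the floor of 3 fragments. That value takes the 9 fragments as exact and leaves out their counting error, so it is no lower bound. Of those 9 fragments 8 lay in NC-miR day 2 replicate 2, and without that library 1 fragment was left and no fold could be given. An exact binomial test of the counts against relative depth, which compares these libraries and not the conditions, gave an unadjusted 2-sided p of 0.253 for NC-miR day 4 against normal, 0.114 for miR-29a against NC-miR on day 4, 0.25 for miR-29b against NC-miR on day 4 and 0.00529 for NC-miR day 4 against NC-miR day 2. This last p rested largely on the 8 fragments of NC-miR day 2 replicate 2. Without that library the counts were 0 against 1, and without NC-miR day 2 replicate 1 they were 0 against 8. With either NC-miR day 4 library left out they stayed 0 against 9, over less depth. The p of 0.00529 belongs to all libraries of both groups and does not carry over to these smaller sets.

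Rpl4, the ribosomal protein gene that holds Snord16a, did not pass the test in any comparison. It differed by -0.12 ± 0.17 log2 in NC-miR day 4 against normal (limma, adjusted p = 0.765), by -0.10 ± 0.17 in NC-miR day 4 against NC-miR day 2 (adjusted p = 0.946) and by 0.31 ± 0.17 in miR-29a against NC-miR on day 4 (adjusted p = 0.686).

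**Figure D4:**
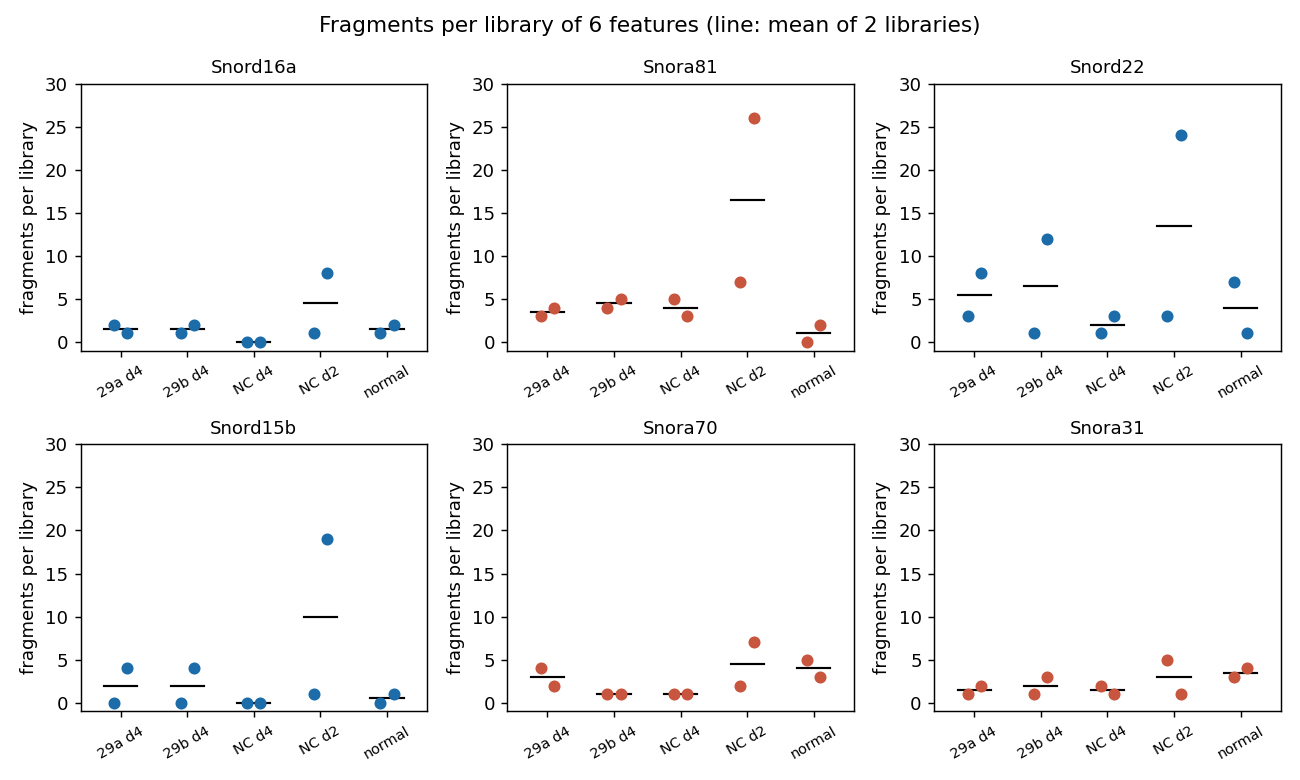
Recovered fragments per library (points) of 6 members in the 5 groups, with the mean of 2 libraries as a line. Snord16a is at 0 in both NC-miR day 4 libraries and at 1 or 2 in 7 of the other 8, and the points of NC-miR day 2 lie far apart for Snora81, Snord22 and Snord15b.

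Among the other box C/D RNAs, Snord22 had the most fragments. It had 3 and 8 in the miR-29a libraries, 1 and 12 in the miR-29b libraries, 1 and 3 for NC-miR day 4, 3 and 24 for NC-miR day 2, and 7 and 1 in the normal libraries. Libraries of 1 group differed as widely as the groups. Snord15b had 0 and 4 fragments with miR-29a, 0 and 4 with miR-29b, 0 and 0 in NC-miR day 4, 1 and 19 in NC-miR day 2, and 0 and 1 in normal mice. Its neighbour in Rps3, Snord15a, had 0 and 0 with miR-29a, 0 and 3 with miR-29b, 0 and 0 in NC-miR day 4, 0 and 9 in NC-miR day 2, and 0 and 1 in normal mice. Snord17, which lies in an intron of Snx5, had 0 and 0 with miR-29a, 1 and 6 with miR-29b, 0 and 0 in NC-miR day 4, 0 and 9 in NC-miR day 2, and 0 and 1 in normal mice. For these 4 RNAs, NC-miR day 2 replicate 2 was the highest library, and miR-29b replicate 2 was second or level with another. The ratio of NC-miR day 2 to normal per unit of depth was 3.11 for Snord22 (95% exact interval 1.38 to 7.93) and 0.627 (0.107 to 2.61) without replicate 2. For Snord15b it was 18.5 (2.95 to 765) and 1.67 (0.0213 to 131) without it. The 3 counted members in Rpl13a had too few fragments to show whether members of 1 host share 1 pattern. Snord32a had 2 fragments in miR-29a replicate 1 alone, Snord33 had 4 fragments spread over 4 libraries, and Snord35a had 5 spread over 5 libraries.

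Among the box H/ACA RNAs, Snora81 was the 1 member whose 8 DSS libraries all held more fragments than both normal libraries. It had 3 and 4 fragments with miR-29a, 4 and 5 with miR-29b, 5 and 3 in NC-miR day 4, 7 and 26 in NC-miR day 2, and 0 and 2 in normal mice. Of all tested features 5.74% had all 8 DSS libraries higher than both normal libraries, against 1 of 22 tested members, a share near that background, and this member was picked out after its values were seen. The value of normal replicate 1 was the lowest of the feature and less than 1 step high, and was read as 0. Per unit of depth, the ratio to normal was 4.16 for miR-29a (95% exact interval 0.793 to 41.1), 4.97 for miR-29b (1.03 to 47.2), 4.49 for NC-miR day 4 (0.896 to 43.4) and 15.2 for NC-miR day 2 (3.89 to 131). Without NC-miR day 2 replicate 2 the last ratio was 5.85 (1.11 to 57.8). These 4 ratios share the normal libraries and their 2 fragments. On the deposited scale Snora81 differed from normal by 4.77 ± 1.24 log2 in NC-miR day 2 (limma, adjusted p = 0.132), which did not pass 0.05. In the DSS libraries the B and plasma cell markers were also lower than in normal mice, by 2.07 to 0.60 log2 in the median of 6 markers, while the markers of colonocytes (0.23 to 1.01 log2, 8 markers), of goblet cells (0.05 to 0.67 log2, 4 markers) and of neutrophils (0.59 to 4.32 log2, the 2 of 4 markers not at the floor) were higher than in both normal libraries in all 8. The normal libraries lay within 0.12 log2 of their mean for colonocytes, 0.04 log2 for goblet cells and 0.22 log2 for neutrophils. The part of these markers in the values of Snora81 was not tested.

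Snora70 and Snora31 were seen in every library. Snora70 had 4 and 2 fragments with miR-29a, 1 and 1 with miR-29b, 1 and 1 in NC-miR day 4, 2 and 7 in NC-miR day 2, and 5 and 3 in normal mice. Both the miR-29b and the NC-miR day 4 libraries lay below both normal libraries, with limma differences of -1.83 ± 0.65 (adjusted p = 0.241) and -1.81 ± 0.65 (adjusted p = 0.247), neither of which passed the test. Snora31 had 1 and 2 fragments with miR-29a, 1 and 3 with miR-29b, 2 and 1 in NC-miR day 4, 5 and 1 in NC-miR day 2, and 3 and 4 in normal mice. Its groups overlapped except that both miR-29a and both NC-miR day 4 libraries lay below both normal libraries. The moderated F test over the 5 groups called neither Snora31 (adjusted p = 0.776) nor Snora70 (adjusted p = 0.334). The share of all features with such an order of libraries is not given, so the order is a description only. Snora28, in Eif5, had 0 and 3 with miR-29a, 3 and 0 with miR-29b, 2 and 1 in NC-miR day 4, 4 and 4 in NC-miR day 2, and 2 and 4 in normal mice. Snora43 had 1 and 2 with miR-29a, 0 and 1 with miR-29b, 1 and 2 in NC-miR day 4, 0 and 2 in NC-miR day 2, and 5 and 2 in normal mice. Snora64, in the ribosomal protein gene Rps2, had 2 and 2 with miR-29a, 1 and 0 with miR-29b, 0 and 0 in NC-miR day 4, 1 and 4 in NC-miR day 2, and 1 and 3 in normal mice. As with Snord16a, its NC-miR day 4 libraries were both at 0, and its difference from normal of -6.57 ± 1.59 log2 (limma, adjusted p = 0.125) did not pass the test. The 2 members of Snhg12 gave Snora16a 12 and Snora44 8 fragments in all, with no library above 3.

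Of the 9 Cajal body RNAs, 3 were above the floor in any library. Scarna6, in an intron of Atg16l1, had 0 and 0 fragments with miR-29a, 0 and 1 with miR-29b, 1 and 1 in NC-miR day 4, 0 and 4 in NC-miR day 2, and 1 and 0 in normal mice. Scarna13, in an intron of the noncoding host Snhg10, had 0 and 0 with miR-29a, 0 and 3 with miR-29b, 0 and 1 in NC-miR day 4, 3 and 0 in NC-miR day 2, and 0 and 1 in normal mice. Scarna3a had 1 fragment, in NC-miR day 2 replicate 2. The other 6 Cajal body RNAs were at the floor in all libraries. No Cajal body RNA was seen in a miR-29a library, and no order of the groups could be read from so few fragments.

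How many members differed between groups? Of the 46, only 22 exceeded the floor in each library of some group and so entered the test of 13051 features with limma, and a member that enters through a group where it is high is bound to look different from groups where it is not. In NC-miR day 2 against normal 0 of 22 members were called, where 1.22% of all tested features were. In NC-miR day 4 against normal 1 member was called (Snord16a), with a background of 0.383%. In miR-29a against normal 0 were called (background 0.421%), and in miR-29b against normal 0 (0.49%). Among the day 4 groups, in miR-29a against NC-miR, in miR-29b against NC-miR and in miR-29a against miR-29b, 0 members and 0% of all features were called. In NC-miR day 4 against NC-miR day 2 1 member was called (Snord16a), with a background of 0.0153%, which is 2 features. A moderated F test for any difference among the 5 groups called 1 member (Snord16a, adjusted p = 0.0229), with a background of 0.375%. At an unadjusted p under 0.05, 1 to 4 of the 22 members passed in each pairwise comparison. Against normal the shares were 9.09% in NC-miR day 2 (15.2% of all features) and 18.2% in NC-miR day 4 (15.2%). They were 4.55% in miR-29a (11%) and 18.2% in miR-29b (15.3%) against normal. On day 4 they were 13.6% in miR-29a against NC-miR (7.63%) and 9.09% in miR-29b against NC-miR (12.5%). The share was 18.2% in miR-29a against miR-29b (7.43%) and in NC-miR day 4 against NC-miR day 2 (6.41%). Apart from Snord16a, the lowest adjusted p of a member in any comparison was 0.125. With 1 call and 22 members tested, the calls say nothing of the members as a group.

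The median difference of the 22 members was 1.10 log2 in NC-miR day 2 against normal, where 16 were higher at any p, against a median of -0.06 over all features. It was -0.84 in NC-miR day 4 against normal, where 6 were higher at any p, against -0.03 over all features. In NC-miR day 4 against NC-miR day 2 it was -1.55, with 3 of 22 higher at any p, against 0.02 over all features. Without NC-miR day 2 replicate 2, the median was -0.07 in NC-miR day 2 against normal, with 10 of 22 higher at any p, and -0.78 in NC-miR day 4 against NC-miR day 2, with 7 of 22 higher at any p. Of the 22 members, 13 exceeded the floor in each NC-miR day 2 library, the most of any group. Through that group alone 3 members entered the test, against 4 through miR-29b alone and 1 through each of the other groups alone. These medians are a description of features that lie mostly 0 to 2 fragments from the floor. The standard error of a group difference had a median of 2.02 log2 over the 22 members and 0.18 log2 over all features. The 4 members never at a shared floor had standard errors of 0.649 to 1.5 log2.

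**Figure D5:**
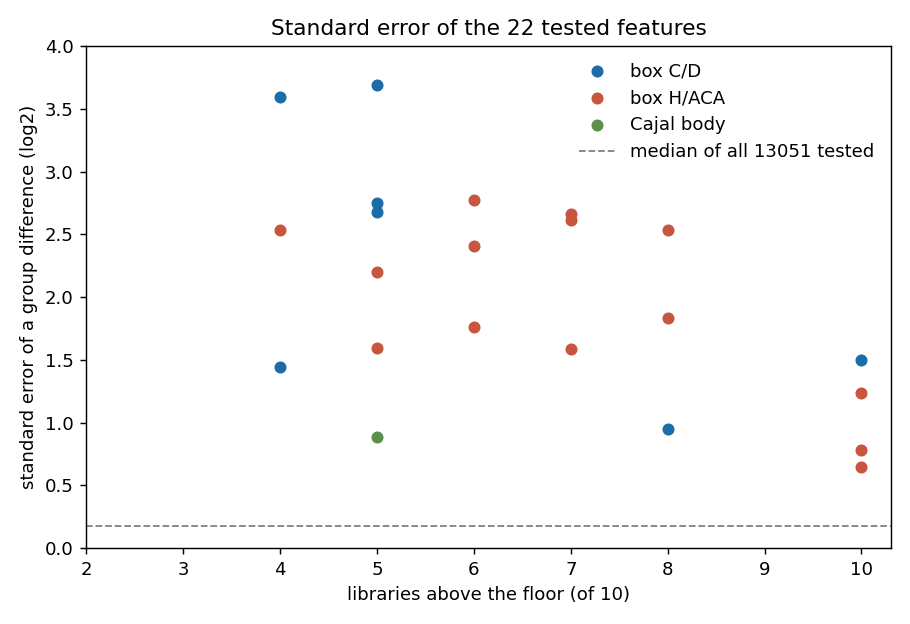
Standard error of a group difference fitted by limma (log2, vertical axis) against the number of libraries above the floor (horizontal axis) for the 22 tested members, with the median of all tested features as a dashed line at 0.18. All 22 members lie above the line, from 0.649 to 3.69.

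Did the host genes move? A host on the same strand was annotated for 44 of the 46 members, protein-coding for 32 and of another type for 12. The member lay in an intron for 21, within an annotated exon for 21 and across an exon boundary for 2. Over 33 distinct hosts that were tested, 0 were called in any of the 8 comparisons (limma). Against normal, 1 host in NC-miR day 2, 6 in NC-miR day 4, 1 in miR-29a and 2 in miR-29b had an unadjusted p under 0.05. Of all features 15.2%, 15.2%, 11% and 15.3% did. On day 4, 8 hosts did in miR-29a against NC-miR, 4 in miR-29b against NC-miR and 1 in miR-29a against miR-29b. Of all features 7.63%, 12.5% and 7.43% did there. In NC-miR day 4 against NC-miR day 2, 0 hosts did, against 6.41% of all features. The median difference of the hosts was lowest in NC-miR day 4 against normal, at -0.34 log2 (-0.03 over all features). It was highest in miR-29a against NC-miR on day 4, at 0.37 log2 (0.02 over all features). Snhg9, the noncoding host of Snora78, differed by -2.71 ± 0.67 log2 in NC-miR day 2 against normal (adjusted p = 0.119) and by -2.69 ± 0.67 in NC-miR day 4 against normal (adjusted p = 0.132). Snora78 had 1 and 1 fragments with miR-29a, 0 and 3 with miR-29b, 1 and 0 in NC-miR day 4, 0 and 0 in NC-miR day 2, and 5 and 1 in normal mice. Snhg1, the host of Snord22, differed by -0.55 ± 0.20 log2 in NC-miR day 4 against normal (adjusted p = 0.242), and Gas5, a noncoding host of many box C/D RNAs, by -0.25 ± 0.27 (adjusted p = 0.694). In a list of 38 tested protein-coding hosts, 1 fell in NC-miR day 4 against normal: Rpl30, which encodes a protein of the large ribosomal subunit, by -1.64 ± 0.23 log2 (adjusted p = 0.0338). That call was lost without either miR-29a library, either NC-miR day 4 library or either normal library. Of 14 tested noncoding hosts, 0 were called in any comparison.

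Of the 4 core proteins of box C/D particles, 0 were called in any comparison, and Fbl, the methyltransferase fibrillarin, differed by -0.29 ± 0.28 log2 in NC-miR day 4 against normal (adjusted p = 0.656). Of the 4 core proteins of box H/ACA particles, 0 were called. Dkc1, the pseudouridine synthase dyskerin, differed by 0.28 ± 0.23 log2 in NC-miR day 4 against normal (adjusted p = 0.598) and Nop10 by -0.55 ± 0.19 log2 in NC-miR day 2 against normal (adjusted p = 0.225). Of 7 tested proteins of Cajal bodies, 0 were called, and 1 more lay at the floor in all libraries. Coil, which encodes coilin, differed by -0.28 ± 0.29 log2 in NC-miR day 4 against normal (limma, adjusted p = 0.69). Gemin4 differed by -0.39 ± 0.13 log2 in NC-miR day 2 against normal (adjusted p = 0.206). Smn1 had the smallest unadjusted p of this list, with -0.64 ± 0.16 log2 in miR-29a against NC-miR on day 4 (adjusted p = 0.542). Of 16 assembly and processing factors, 1 fell: Pop1, a protein of RNase P and RNase MRP, by -0.79 ± 0.15 log2 in NC-miR day 2 against normal (adjusted p = 0.0479). Leaving out 1 library at a time kept that call in 1 of 10 cases, the one without NC-miR day 2 replicate 2. Of 22 genes of ribosomal RNA transcription and processing, 0 were called in any comparison, and Rrp9, a protein of the U3 particle, came closest in miR-29b against normal, with 1.00 ± 0.20 log2 (adjusted p = 0.0922).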

How the data were processed

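The authors deposited log2 values relative to a baseline of each feature, under the heading FPKM per the file headers; how the baseline and the floor were set is not given in the sources used here. TopHat2 2.0.13, Bowtie2 2.2.3, SAMtools 0.1.19, Cuffnorm 2.2.1 and mm10 are named in the submitters' processing notes. Libraries were grouped by sample titles. From each library its commonest value was subtracted. A feature was at its floor in libraries sharing its lowest value within 1e-05 log2. Whole fragment counts were recovered as the smallest whole numbers that fit all heights over the floor with 1 step a feature and 1 offset a library, within 0.005 log2. In Snora81 the lowest value was set aside. Members seen in 1 library took their count from features of like length, within 0.2 log2. The total depth is unknown, and the offsets give relative depth only. Group means were fitted with limma 3.58.1 (R 4.3.3) to the features that exceeded the floor in each library of some group, without trend, with Benjamini-Hochberg adjustment over the features tested and calls under 0.05. Count tests used scipy and were chosen after seeing the data. Loci, hosts and sequences came from GENCODE for GRCm38, lengths from RefSeq. Named members were those called, those of smallest p per comparison, all Cajal body RNAs, those never at the floor and those at the floor in 1 group, plus fixed hosts and proteins. No test of the number of members at the floor is given. Members and lists were chosen with earlier results of these data known.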

Additional observations from a re-analysis of the deposited data

Results flagged for a closer look

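Snord16a drew attention because its contrast of NC-miR day 4 with NC-miR day 2, which equals the difference between their contrasts with normal mice, gave -9.80 log2 (limma, SE 0.95, adjusted p = 0.0357), with both NC-miR day 4 libraries below both NC-miR day 2 libraries. The recovered counts behind it were 0 and 0 fragments in NC-miR day 4 and 1 and 8 in NC-miR day 2, the library with 8 being the one that held 33% of the fragments of all members. With the floor raised to the lowest value seen above it, the difference was -1.63 log2 and did not pass the test. The call was lost in 11 of 16 alternatives. Without NC-miR day 2 replicate 2 the counts were 0 fragments against 1.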

How the results depend on the processing

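With the floor of each feature raised to its lowest value above it, the members called numbered 0 in NC-miR day 4 against normal, in NC-miR day 4 against NC-miR day 2 and in the F test, and Snord16a differed by -0.79 and -1.63 log2 in those 2 comparisons. With no filter, 0 members were called in NC-miR day 4 against NC-miR day 2. Fitting only the groups compared called 3 members in NC-miR day 4 against normal (Snora64, Snord16a and Snord7) among 20 features, 2 members among 13 features in miR-29b against normal, and 2 members each in miR-29a against miR-29b (among 2 features), miR-29a against NC-miR (among 2) and, also on day 4, miR-29b against NC-miR (among 3), of 13051 tested each time. In NC-miR day 4 against NC-miR day 2 that fit called Snora5c and not Snord16a, among 2 features of 13051. Leaving out 1 library at a time gave 0 to 2 members in NC-miR day 4 against normal and in the F test, and 0 to 1 in NC-miR day 2 against normal (Snora81, without normal replicate 2), in miR-29a or miR-29b against NC-miR on day 4 (Snord16a, without either NC-miR day 2 library) and in NC-miR day 4 against NC-miR day 2. The call of Snord16a in NC-miR day 4 against normal was lost without any 1 library of those groups, and that against NC-miR day 2 was lost without any 1 library of the other groups and kept without either NC-miR day 2 library. The direction of Snord16a was kept in all alternatives run. Replicate numbers did not pair the libraries (10 correlations of deviations between groups, -0.24 to 0.11, 1 over 0.1), and with a replicate block the members called were 1 in NC-miR day 4 against normal and 1 against NC-miR day 2, as without it. The calls of Pop1 and Rpl30 were lost with the block, with no filter and with only the groups compared, and that of Pop1 with library medians subtracted. The cause of these changes was not tested beyond the construction of each alternative. Apart from the fit to only the groups compared, the calls over all features are not set beside these counts. The counts therefore say nothing of the members as a group. With 1 or 2 fragments in 71.6% of values above 0, an absence in 2 libraries of a group is not shown to be an absence of the RNA.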
